A study of Mus musculus with 9 samples.

Results

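The genes of the splicing machinery and its regulators were examined in cells of the adult mouse brain sorted by a fluorescent reporter. The cells came from 2 neurogenic regions, the hippocampal dentate gyrus (DG) and the subventricular zone (SVZ) that lines the lateral ventricle. Members were chosen by symbol: the Snrp, Sf3a, Sf3b, U2af, Prpf, Srsf, Hnrnp and numbered Rbm genes, with Ptbp1 to Ptbp3, Srrm1 to Srrm4, Tra2a and Tra2b. Of the 14477 genes in the deposited table, 113 carried such a symbol, and 112 of them were protein coding. The other one, Snrpert, is a processed pseudogene of Snrpe. The protein-coding genes Rbm31y, Rbm42, Rbm44 and Rbm8a2 also match the symbols and were not analysed here.

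All libraries came from untreated adult mice of strain B6.Cg-Tg(Nes-EGFP)1Yamm in standard housing, a transgenic line whose green fluorescent protein is driven by control elements of Nestin, an intermediate filament gene of neural stem cells. Tissue of either region was dissected and dissociated, and fluorescent cells were sorted, giving 5 DG and 4 SVZ libraries that differ by region only, as far as the labels say. The sources used here give neither the ages nor whether a library held 1 animal or a pool, so p-values measure only how these libraries vary, which may in part be technical. The sort selects on the reporter and not on cell type.

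Introns are removed from pre-mRNA by the spliceosome, which assembles from small nuclear ribonucleoproteins (snRNPs), each made of an RNA, a ring of Sm proteins and particle-specific proteins. The SF3 complexes and U2AF recognise the branch site and the end of the intron, and the PRPF factors carry the particles through assembly and catalysis. SR proteins mostly favour and hnRNP and PTB proteins often repress the use of nearby splice sites, and in the nervous system the balance among them sets which neuronal exons are included.

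Levels are given as log2 CPM (reads of a gene relative to all reads of its library), with a prior count of 1 read, and differences as log2 of DG minus SVZ, so that a negative value means a higher level in SVZ. Each library held 31126803 to 41164044 reads over the genes of the table, and no member had 0 reads in any library. A member was called where the Benjamini-Hochberg adjusted p of limma over all 14477 genes was under 0.05. CPM are relative to the library total, and in bulk samples such as these, fewer cells of a type and less RNA per cell cannot be told apart.

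The sort held different mixtures in the regions. All 10 endothelial, 9 pericyte and smooth muscle and 6 fibroblast markers were higher in DG: their summed levels were 1150 to 2190, 5260 to 11000 and 646 to 1390 CPM there, against 9.51 to 64.7, 70.7 to 166 and 24.7 to 86 CPM in SVZ. The fibroblast sum was mostly Pdgfra, at 8.75 to 10.15 log2 CPM in DG, where the other fibroblast markers lay between 1.03 and 7.21. That sum thus mainly follows 1 gene. Which cells carried Pdgfra was not tested, and 5 of 6 oligodendrocyte lineage markers were also higher in DG. All 8 neuroblast and 10 cell cycle markers were higher in SVZ, with summed levels of 19500 to 23100 and 4280 to 5010 CPM, against 5350 to 8000 and 1150 to 1590 CPM in DG. The 8 stem and precursor markers summed to 10500 to 15200 CPM in DG and 1360 to 1910 CPM in SVZ. Most of the DG sum was Slc1a3, at 13.13 to 13.7 log2 CPM in DG and 9.42 to 10.21 in SVZ. The markers were divided: the 4 called higher in DG were Slc1a3 (3.44), Gfap (4.17), Fabp7 (2.1) and Prom1 (1.63). The 3 called higher in SVZ were Nes (-0.95), Sox2 (-1.11) and Egfr (-1.41). Of 8 ependymal markers 7 were higher in SVZ (summed levels 110 to 290 CPM, against 23.2 to 36.3 in DG), and of 6 oligodendrocyte lineage markers 5 were higher in DG (2430 to 4080 CPM, against 1060 to 2230 in SVZ). Microglia and mature neuron markers were divided, with 2 of 8 called higher in SVZ for the former and 3 of 8 in DG and 1 in SVZ for the latter. No marker was at 0 reads in any library. Every difference between the regions below moves with these lists, and their part in it was not tested. The libraries separated by region on the first principal component, with 82.9% of the variance, and DG 3 stood apart on the second, with 3.89%.

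Most splicing genes were higher in SVZ, in each of 7 groups by role. Of the 113 members, 92 (81.4%) were called higher in SVZ, where 33.7% of all genes of the table were. Only 5 members (4.42%) were called higher in DG, where 32.9% of all genes were, namely Srsf12, Rbm11, Rbm20, Rbm46 and Rbm47. The other 16 did not pass the test. The median difference was -0.67, a 1.59-fold higher level in SVZ, with quartiles of -0.86 and -0.47, against a median of -0.07 over all genes. For 107 of the 113 the difference was below 0. In the 7 role groups described below, 66.7% to 95.7% of members were called higher in SVZ and 0% to 12.5% in DG, against the same 33.7% and 32.9%.

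The change was broad and moderate. In 79 members (69.9%) every DG library lay below every SVZ library, which held for 28.3% of all genes, and in the 5 called higher in DG every DG library lay above, which held for 29.7% of all genes. Called differences of at least 2-fold were found for 19 members (16.8%) towards SVZ and 5 towards DG, against 12.4% and 22.7% of all genes. Members were mostly well expressed, and among genes whose mean level reached 3 log2 CPM, 88 of 103 members (85.4%) and 3684 of 9762 genes (37.7%) were higher in SVZ.

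Member reads made up 1.26 to 1.49% of all reads in the DG libraries (mean 1.36% ± 0.0852, SD, n = 5) and 2.1 to 2.27% in the SVZ libraries (2.18% ± 0.0716, SD, n = 4). The widest 95% Wilson interval of a single library reached 0.00523 percentage points to either side, for counting error only. The mean level over members was 5.68, 5.82, 5.63, 5.69 and 5.62 log2 CPM in DG 1 to 5, and 6.26, 6.31, 6.26 and 6.25 in SVZ 1 to 4. The regions did not overlap, and DG 2 was the DG library nearest to SVZ. DG 2 also had the highest DG mean of the neuroblast markers (8.41 log2 CPM, others 6.58 to 6.98). Its excess was largest for Dlx1 (6.14, others 1.88 to 2.75) and Dlx2 (3.4, others -1.03 to 0.1). This is 1 library, and a link between the marker and member levels was not tested. Without DG 2 the count of members higher in SVZ was 91, without DG 3 it was 91, and without SVZ 1, which had the highest endothelial markers of its group, it was 89.

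**Figure D1:**
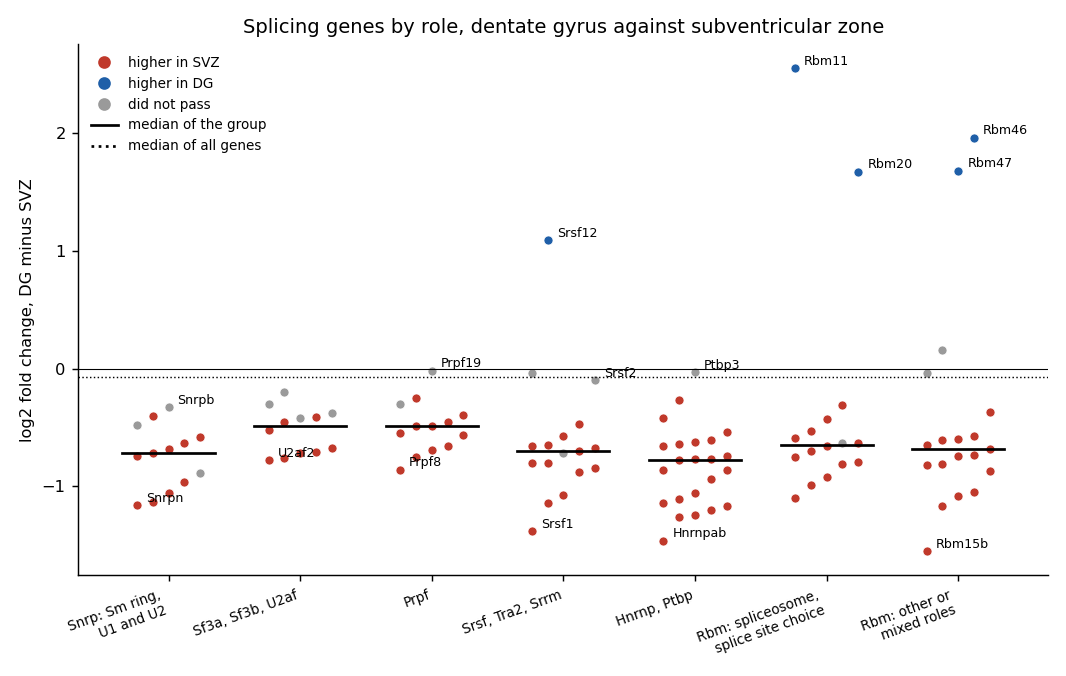
Log2 fold change (DG minus SVZ) of each of the 113 members, in 7 groups by role, coloured by limma call. Thick bars are group medians, which lie between -0.78 and -0.48, and the dotted line is the median of all genes (-0.07). The 5 members called higher in DG stand alone at the top.

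**Figure D2:**
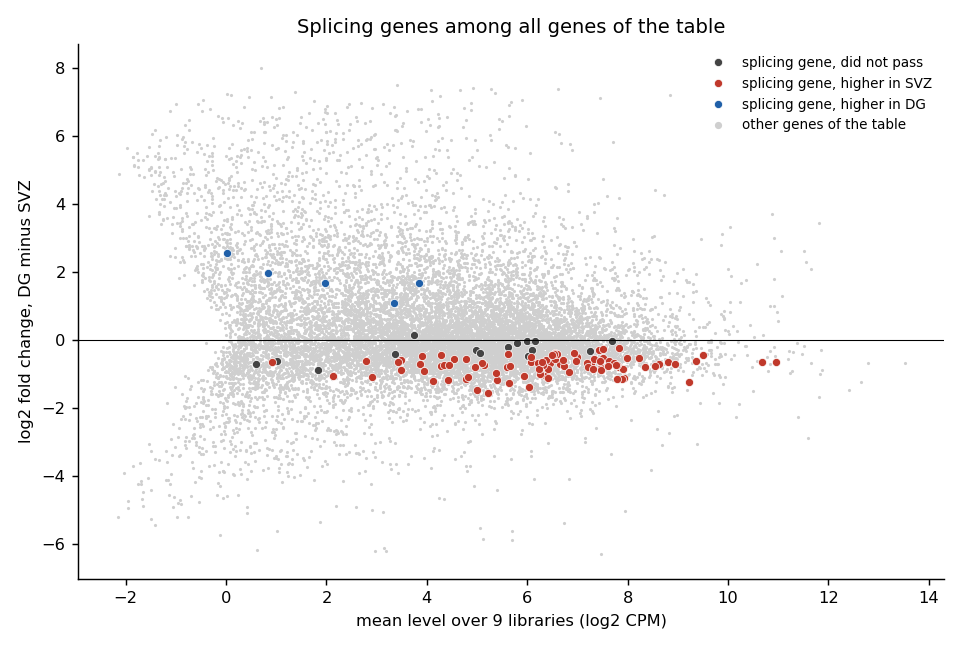
Mean level over the 9 libraries (log2 CPM) against log2 fold change (DG minus SVZ) for all 14477 genes, with members in colour. Most members form a narrow band below 0 over the range of levels, and 3 of the 5 called higher in DG have means under 3 log2 CPM.

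The Snrp genes encode the Sm ring and the specific proteins of the U1 and U2 particles. Of 13 members, 10 were higher in SVZ, none in DG, and the median difference was -0.72. Snrpn, an imprinted gene expressed from the paternal copy that encodes the neural Sm protein SmN, was at 7.09, 7.5, 7.29, 7.15 and 7.29 log2 CPM in DG 1 to 5 and at 8.4, 8.38, 8.42 and 8.49 in SVZ 1 to 4. All SVZ libraries lay above all DG libraries. The difference was -1.16 (SE 0.09, limma adjusted p = 1.18e-06), a 2.23-fold higher level in SVZ. Its paralogue Snrpb, which encodes the Sm proteins B and B' of most tissues, was at 7.28, 7.13, 7.06, 7.08 and 7.0 log2 CPM in DG and at 7.45, 7.88, 7.67 and 6.74 in SVZ. The groups overlapped through SVZ 4, which was the lowest of all libraries. Its difference of -0.33 (95% interval -0.75 to 0.09) did not pass (limma adjusted p = 0.148), and without SVZ 4 it was -0.56 (limma adjusted p = 0.00147).

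The coding sequences of Snrpb and Snrpn differ at scattered bases, and the start of both is shown. The rest of their exons was not compared, and how well reads separate was not tested. Over the aligned coding sequence, 80.2% of 696 bases were identical, with a longest identical run of 32 bases. Coding bases 4 to 93, counted from the A of the start codon in GENCODE M21 transcripts (mm10), lie at chr2:130177077-130177166 (minus strand) for Snrpb and chr7:59987474-59987563 (minus strand) for Snrpn. Capitals mark the 13 of 90 bases that differ.

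Snrpb: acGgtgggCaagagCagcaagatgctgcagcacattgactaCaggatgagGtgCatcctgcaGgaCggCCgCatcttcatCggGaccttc
Snrpn: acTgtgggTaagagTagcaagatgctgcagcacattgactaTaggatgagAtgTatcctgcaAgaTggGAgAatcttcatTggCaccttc

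Among the ring subunits shared by all Sm-class particles, Snrpe and Snrpg differed by -1.13 (SE 0.19, limma adjusted p = 0.000343) and -0.96 (SE 0.22, limma adjusted p = 0.00277). Snrpert, the pseudogene of Snrpe, differed by -1.06 (SE 0.29) on 66 to 268 reads. How far its reads can be told apart from those of Snrpe was not tested. Of the particle-specific proteins, Snrpa1, the U2 protein A', was at 6.33 to 6.64 log2 CPM in DG and 6.97 to 7.11 in SVZ, without overlap, a difference of -0.58 (SE 0.09). The members of the group that did not pass were Snrpb, Snrpd2 and Snrpf. Snrpf shares 85.4% of its exon bases with 2 other annotated genes, and Snrpn shares 44.1% with 3. The largest overlap of Snrpf is with Ccdc38 on the opposite strand, and the library preparation did not mark strand. That of Snrpn is with Gm38393 on the same strand, where strand would not separate the genes. Reads in the shared bases cannot be assigned with certainty.

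Branch site and intron end recognition rests on the SF3A and SF3B complexes and on U2AF. Of 12 members, 8 were higher in SVZ and the median difference was -0.48. Sf3b1, the subunit that holds the branch site helix, was at 8.59, 8.81, 8.55, 8.63 and 8.51 log2 CPM in DG and 9.39, 9.23, 9.16 and 9.58 in SVZ. The groups did not overlap, and the difference was -0.72 (SE 0.10, limma adjusted p = 8.73e-05). Sf3b3, its scaffold partner, differed by a like amount, -0.71 (SE 0.09).

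U2af2 binds the polypyrimidine tract and U2af1 the AG at the intron end. U2af2 differed by -0.78 (SE 0.13, limma adjusted p = 0.000345), without overlap. U2af1 was at 5.42, 5.53, 4.96, 5.43 and 5.22 log2 CPM in DG and 6.21, 6.34, 6.31 and 5.41 in SVZ. SVZ 4 was as low as the DG libraries, and it was low for Snrpb too. With it the difference was -0.76 (SE 0.20, limma adjusted p = 0.00525), and without it -0.98. Sf3a2, Sf3b4, Sf3b5 and U2af1l4 did not pass.

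The Prpf genes encode factors of the U4/U6.U5 particle and of the catalytic steps, with a few that act at the 5' splice site. Of 13 members, 11 were higher in SVZ, with a median of -0.49. Prpf8, the large U5 protein that cradles the catalytic RNA core, was at 7.49, 7.62, 7.58, 7.41 and 7.49 log2 CPM in DG and 8.59, 7.95, 8.09 and 8.88 in SVZ. The DG libraries were close together and the SVZ libraries spread, without overlap. The difference was -0.86 (SE 0.17, limma adjusted p = 0.000886). Prpf3, a U4/U6 protein, differed by -0.69 (SE 0.12), without overlap. Prpf19 and Prpf40b did not pass.

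SR proteins, the Tra2 proteins and the SR-related matrix proteins Srrm bind exonic enhancers or bridge splice sites. The 17 members held 13 called higher in SVZ and 1 in DG, with a median of -0.70. Srsf1, a general and alternative splicing factor, was at 5.17, 5.67, 5.4, 5.43 and 5.47 log2 CPM in DG and 6.88, 6.58, 6.48 and 7.28 in SVZ. SVZ 4 was the highest library here. The difference of -1.38 (SE 0.16, limma adjusted p = 2.4e-05), or 2.6-fold, was the largest of the group towards SVZ. Srsf6 differed by -1.14 (SE 0.23), Srsf3 by -0.80 (SE 0.12) and Tra2b, which binds purine-rich enhancers, by -0.70 (SE 0.10).

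Srrm4 promotes the inclusion of neuronal microexons. Its level was 5.42, 5.7, 5.47, 5.6 and 5.13 log2 CPM in DG and 6.67, 6.28, 6.52 and 6.68 in SVZ. The groups lay well apart, with a difference of -1.07 (SE 0.13, limma adjusted p = 3.11e-05). Its relative Srrm3 was low in all libraries (32 to 77 reads) and its difference of -0.72 narrowly missed the threshold (limma adjusted p = 0.0544). Without DG 3, the library with the highest mature neuron markers, the Srrm3 difference was -0.91 (limma adjusted p = 0.012), and without SVZ 1 it was -0.87 (limma adjusted p = 0.035).

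Srsf12, an SR protein relative, went against its family. It was at 3.89, 3.96, 3.96, 3.64 and 3.69 log2 CPM in DG and 3.0, 2.62, 2.79 and 2.55 in SVZ. All DG libraries lay above all SVZ libraries, by 1.09 (SE 0.15, limma adjusted p = 8.02e-05). Srsf2 was at 5.29, 5.97, 6.66, 5.26 and 5.6 log2 CPM in DG and 5.72, 5.88, 5.73 and 6.11 in SVZ. DG 3 was the highest and DG 4 the lowest of all libraries, so that its difference of -0.10 lay within the spread (95% interval -0.67 to 0.46, limma adjusted p = 0.731). Srsf2 shares 25.3% of its exon bases with 2 other annotated genes. Srsf5 did not pass either (-0.04, limma adjusted p = 0.767).

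The hnRNP and PTB proteins coat nascent RNA and often repress exons. Of the 7 role groups they had the highest share called: 22 of 23 in SVZ (95.7%, against 33.7% of all genes), with a median of -0.78. In 20 of the 23 (87%) every DG library lay below every SVZ library, against 28.3% of all genes. Hnrnpa1, which represses exons with UAGG-type elements, was at 8.57, 8.81, 8.35, 8.75 and 8.91 log2 CPM in DG and 9.87, 9.9, 9.9 and 9.98 in SVZ. The SVZ libraries were nearly equal and all higher, with a difference of -1.24 (SE 0.11, limma adjusted p = 2.61e-06), or 2.36-fold. Hnrnpab, which also binds single-stranded DNA, was at 4.23 to 4.57 log2 CPM in DG and 5.37 to 6.34 in SVZ. Its difference of -1.46 (SE 0.19, limma adjusted p = 4.59e-05) was the largest of the group, and it shares 29.1% of its exon bases with Phykpl on the opposite strand.

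Called differences of more than 2-fold without overlap were also found for Hnrnpd (-1.26), Hnrnpll (-1.20), Hnrnpul2 (-1.17), Hnrnph1 (-1.11) and Hnrnpa0 (-1.06). The abundant Hnrnpa2b1 and Hnrnpk differed less, by -0.66 (SE 0.13) and -0.64 (SE 0.09). Per kilobase of exon, Hnrnpk, Hnrnpa2b1, Hnrnpa1, Hnrnpc and Srsf7 were the 5 highest members in both regions. Their mean RPKM (CPM per kilobase of exon) were 254, 202, 131, 127 and 104 in DG and 396, 324, 306, 192 and 163 in SVZ. The order of the most abundant members was thus the same, while Hnrnpa1 was nearer to Hnrnpa2b1 in SVZ.

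The 3 PTB genes had unlike values. Ptbp1 is the form of non-neuronal and dividing cells, and by repressing an exon of Ptbp2 it holds back that neural paralogue until neurons differentiate. Ptbp1 was at 7.32, 7.34, 6.91, 7.41 and 7.42 log2 CPM in DG and 7.78, 7.78, 7.71 and 8.02 in SVZ, a difference of -0.54 (SE 0.12, limma adjusted p = 0.00182). Ptbp2 was at 7.39, 7.73, 6.93, 7.36 and 7.5 in DG and 8.62, 8.5, 8.44 and 8.52 in SVZ, a difference of -1.14 (SE 0.14, limma adjusted p = 2.65e-05). Both were higher in SVZ without overlap, and DG 3 was the lowest library for both. Ptbp3, first known from blood cells, was at 6.23, 6.25, 6.2, 5.88 and 6.04 in DG and 6.27, 6.2, 5.94 and 6.17 in SVZ. These groups overlapped throughout (-0.03, 95% interval -0.27 to 0.21, limma adjusted p = 0.84), with a difference of 0.01 when libraries were scaled by median ratios.

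**Figure D3:**
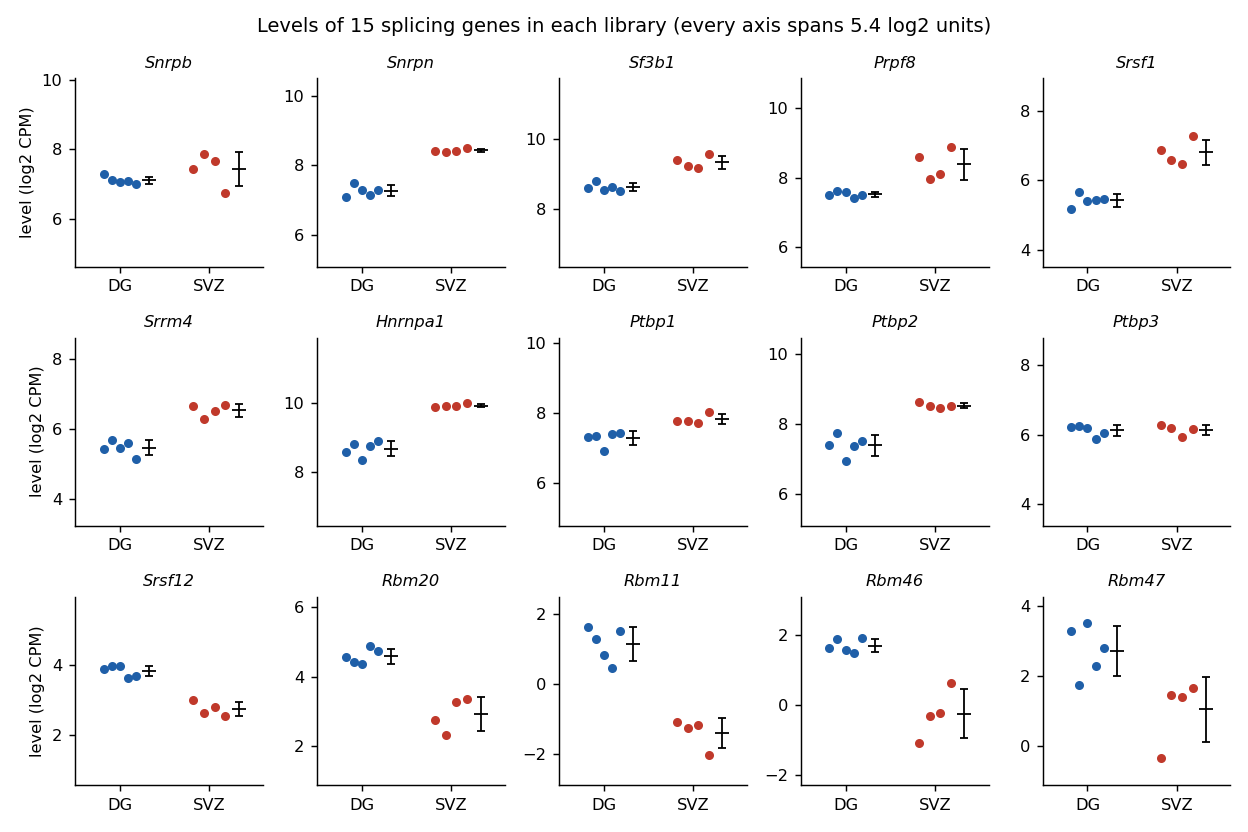
Level (log2 CPM) of 15 members in each DG (n = 5) and SVZ (n = 4) library, with black bars for the mean ± SD. Every axis spans the same range, so that gaps can be compared between panels. Snrpn, Hnrnpa1 and Ptbp2 are tight in SVZ, SVZ 4 falls away in Snrpb, and Ptbp3 is level between the regions.

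Promoter sequence is shown for 3 hnRNP genes with differences of at least 2-fold and for Rbm46, which moved the other way. Each is the 150 bases before a RefSeq start (GRCm38.p6), outside annotated exons. They lie at chr15:103240247-103240396 (plus strand) for Hnrnpa1, chr11:51606882-51607031 (minus) for Hnrnpab, chr13:58128557-58128706 (minus) for Hnrnpa0 and chr3:82876484-82876633 (minus) for Rbm46. Capitals mark GC boxes (GGGCGG) and CCAAT boxes (CCAAT), on either strand.

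Hnrnpa1: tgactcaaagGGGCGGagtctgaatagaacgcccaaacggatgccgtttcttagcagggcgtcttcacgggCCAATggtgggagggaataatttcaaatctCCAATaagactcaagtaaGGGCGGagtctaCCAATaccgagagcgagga
Hnrnpab: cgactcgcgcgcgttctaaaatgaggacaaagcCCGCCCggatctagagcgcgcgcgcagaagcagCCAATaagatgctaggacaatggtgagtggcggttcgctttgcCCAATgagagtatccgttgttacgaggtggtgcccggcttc
Hnrnpa0: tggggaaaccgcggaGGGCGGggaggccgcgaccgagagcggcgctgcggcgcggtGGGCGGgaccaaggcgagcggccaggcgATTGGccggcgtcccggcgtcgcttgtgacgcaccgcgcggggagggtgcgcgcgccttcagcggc
Rbm46: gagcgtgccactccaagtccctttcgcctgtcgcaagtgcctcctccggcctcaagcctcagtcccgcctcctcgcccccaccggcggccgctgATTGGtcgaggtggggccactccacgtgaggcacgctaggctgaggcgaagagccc

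The promoters shown are examples: of 4 RefSeq starts of Hnrnph1 whose window is also outside annotated exons, a gene that is also over 2-fold higher in SVZ, none had both boxes in this window. RefSeq promoters matched 95 of the members (122 promoters), and 18 had none in the table. In the 250 bases before the start, on both strands, GGGCGG was in 52.5% of member promoters and 56% of the 13926 promoters of all table genes, and CCAAT in 44.3% against 35.1%. The ETS core CCGGAA was in 33.6% against 20.2%, and TGCGCA, the core of the NRF1 site, in 21.3% against 10.7%. E2F sites (TTTCGCGC or TTTGGCGC) were in 3.28% against 1.16%, TATAAA in 9.02% against 6.61%, AAGATGGC (YY1) in 2.46% against 1.9% and TGACGTCA (CRE) in 2.46% against 2.55%. These shares describe the letters in the windows only.

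The balance within 4 pairs of paralogues, chosen after their values were seen, was compared as the log2 ratio of RPKM within each library. Adjustment over these 4 pairs does not correct for that choice, so the p-values are descriptive. Ptbp2 over Ptbp1 was -0.89, -0.57, -0.94, -1.01 and -0.87 in DG 1 to 5 and -0.11, -0.23, -0.22 and -0.45 in SVZ 1 to 4. Per base of annotated exon (4740 bases for Ptbp1, 9175 for Ptbp2), Ptbp1 was thus the more abundant in every library. Ptbp2 came nearer to it in all SVZ libraries. In log2 CPM, not divided by length, Ptbp2 lay above Ptbp1 in every library but DG 4. Which gene leads thus depends on the length used, and the shift between the regions does not. The shift was -0.60 (exact two-sided permutation p = 0.0159, the smallest that 5 against 4 libraries allow, 0.0318 adjusted over the 4 pairs). DG 2 was the DG library nearest to SVZ here too. Ptbp1 shares 20.7% of its exon bases with other gene models.

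Snrpn over Snrpb was -0.32, 0.24, 0.11, -0.06 and 0.16 in DG and 0.82, 0.37, 0.62 and 1.63 in SVZ. The genes were near parity in DG and Snrpn led in every SVZ library, a shift of -0.83 (exact permutation p = 0.0159, adjusted 0.0318), or -0.58 without SVZ 4. Snrpn shares 44.1% of its exon bases with 3 other annotated genes. Hnrnpll over Hnrnpl ran from -4.45 to -3.71 in DG and -3.82 to -3.03 in SVZ. These overlapped, with a shift of -0.58 that did not pass after adjustment (exact permutation p = 0.0476, adjusted 0.0635). Tra2a over Tra2b differed by -0.09 (exact permutation p = 0.444, adjusted 0.444), and by -0.18 without SVZ 4 (exact permutation p = 0.0357). Outside Snrpb and Snrpn, the paired coding sequences were less alike: 70.4% identical for Ptbp1 and Ptbp2, 64.7% for Hnrnpl and Hnrnpll and 66.7% for Tra2a and Tra2b.

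**Figure D4:**
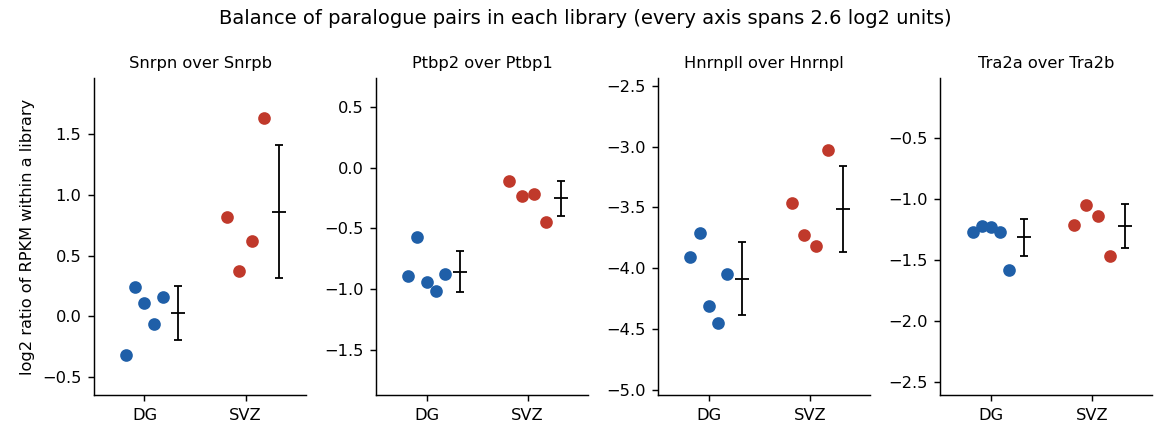
Log2 ratio of RPKM within each DG (n = 5) and SVZ (n = 4) library for 4 pairs of paralogues, with mean ± SD. Snrpn over Snrpb and Ptbp2 over Ptbp1 separate the regions without overlap, Hnrnpll over Hnrnpl and Tra2a over Tra2b do not.

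The Rbm genes share an RNA recognition motif and little else. Of the 16 placed in the spliceosome, the exon junction complex or splice site choice, 13 were called higher in SVZ and 2 in DG. The median was -0.65, and Rbm38 did not pass. Rbm4 and Rbm4b, which regulate alternative exons, differed by -1.10 (SE 0.18) and -0.99 (SE 0.11), and Rbm17, which acts at the intron end, by -0.92 (SE 0.16). Rbm4 shares 60.5% and Rbm4b 30.8% of exon bases with other genes. Rbm24, a regulator of muscle exons, was at 2.89 to 3.35 log2 CPM in DG and 3.72 to 3.93 in SVZ, a difference of -0.66 (SE 0.14, limma adjusted p = 0.00156).

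Rbm20, known for the splicing of titin in heart muscle, was at 4.57, 4.41, 4.36, 4.87 and 4.74 log2 CPM in DG and 2.75, 2.32, 3.27 and 3.36 in SVZ. All DG libraries were higher, by 1.67 (SE 0.22, limma adjusted p = 5.26e-05), or 3.17-fold. Rbm11, a tissue-restricted splicing regulator, was at 1.64, 1.29, 0.84, 0.46 and 1.52 in DG and -1.1, -1.27, -1.18 and -2.03 in SVZ. It rested on 7 to 117 reads per library and had the largest difference of all members, 2.55 (SE 0.34, limma adjusted p = 5.57e-05). Rbm11 exceeded 1 CPM in DG libraries only, so it is in the table only through the group where it is high. Rbm20 and Rbm11 were the 2 called members of this role group that were higher in DG.

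The 19 Rbm genes of other or mixed roles held 15 called higher in SVZ and 2 in DG, with a median of -0.68. Rbm15b, which takes part in guiding RNA adenosine methylation, was at 4.48, 4.8, 4.66, 4.27 and 4.46 log2 CPM in DG and 6.2, 5.84, 5.87 and 6.44 in SVZ. Its difference of -1.55 (SE 0.15, limma adjusted p = 5.75e-06), or 2.94-fold, was the largest towards SVZ among all members. Rbm33 differed by -1.17 (SE 0.19) and Rbm12 by -1.08 (SE 0.15). Rbm12 shares 38.7% of its exon bases with 2 other annotated genes. The cold-induced Rbm3 was at 4.99 to 5.9 in DG and 6.37 to 6.74 in SVZ, a difference of -1.05 (SE 0.17, limma adjusted p = 0.000211).

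Rbm46, a germ cell RNA-binding protein, was at 1.64, 1.89, 1.57, 1.49 and 1.91 log2 CPM in DG and -1.1, -0.32, -0.23 and 0.62 in SVZ. The difference was 1.96 (SE 0.32, limma adjusted p = 0.000273). Among the SVZ libraries it exceeded 1 CPM in SVZ 4 only, so it too is in the table only through DG. Rbm47, a regulator of epithelial transcripts and a cofactor of RNA editing by APOBEC1, was at 3.29, 1.75, 3.51, 2.29 and 2.79 in DG and -0.36, 1.45, 1.41 and 1.66 in SVZ. Both were higher in all DG libraries, although DG 2 came close to SVZ 4 for Rbm47. Its difference was 1.68 (SE 0.47, limma adjusted p = 0.00767), or 1.22 without SVZ 1 (limma adjusted p = 0.0161). Rbm7 and Rbm43 did not pass.

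Libraries of a region also differed from each other. The median SD of a member was 0.21 in DG and 0.18 in SVZ, against 0.25 and 0.26 over all genes. DG 2 held the highest DG value for 49 of the 113 members (43.4%, and 21.6% of all genes), and DG 3 the lowest for 47 (41.6%, and 24.6% of all genes). In SVZ, library 4 held the highest value for 45 members (39.8%, near the 36% of all genes) and the lowest for 43 (38.1%, and 28.4% of all genes). The Snrp group was at 5.99 log2 CPM in SVZ 4, against 6.19 to 6.45 in the other SVZ libraries, and the Srsf, Tra2 and Srrm group at 6.26, against 6.03 to 6.04. The Snrp mean of SVZ 4 still lay above those of all DG libraries (5.21 to 5.7).

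**Figure D5:**
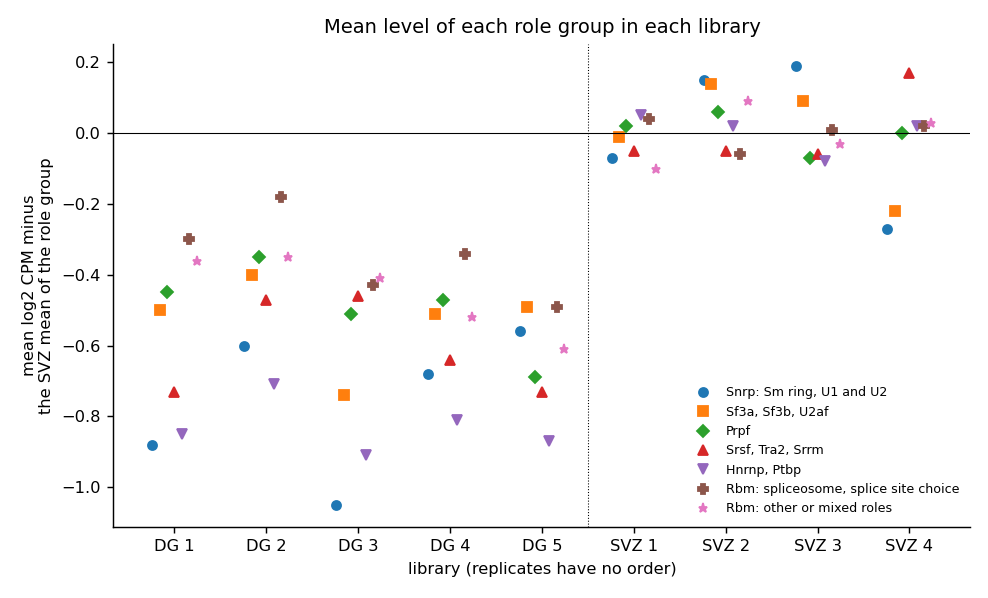
Mean log2 CPM of each role group in each library, minus the SVZ mean of that group. All 7 groups lie below 0 in all DG libraries, and among the SVZ libraries SVZ 4 is lowest for the Snrp and the Sf3 and U2af groups and highest for the Srsf, Tra2 and Srrm group.

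Genes of the pathway outside the symbol rule were taken from lists of spliceosome subunits, regulators and snRNP assembly factors. Of 82 other subunits, 62 (75.6%) were higher in SVZ and 1 (1.22%) in DG, against 33.7% and 32.9% of all genes, with a median of -0.51. Lsm2 and Lsm3, subunits of the ring on U6, differed most among those without overlap, both by -1.17 (SE 0.15). Syf2, of the complex that joins around Prpf19, was the one higher in DG, by 0.41 (SE 0.09, limma adjusted p = 0.00141). Of 15 snRNP assembly factors, 11 (73.3%) were higher in SVZ and none in DG (median -0.47), beside the same shares of all genes. Among the 11 were Gemin6 (-0.67, SE 0.11) and Gemin5 (-0.62, SE 0.13).

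The 54 other regulators were more divided, with 38 (70.4%) higher in SVZ and 12 (22.2%) in DG and a median of -0.58. Over all genes the shares were 33.7% and 32.9%. Celf4, a neuronal regulator, was at 4.7 to 5.96 log2 CPM in DG and 7.32 to 7.97 in SVZ, a difference of -2.43 (SE 0.27, limma adjusted p = 1.48e-05). Celf6 differed by -2.14 (SE 0.40, limma adjusted p = 0.000664) on 8 to 83 reads. Those higher in DG were Esrp1, Srpk3, Khdrbs2, Rbms1, Rbms2, Rbms3, Rbfox1, Rbfox3, Nova1, Qk, Mbnl1 and Mbnl2. Srpk3, a muscle-type SR protein kinase, differed by 3.34 (SE 0.40, limma adjusted p = 2.65e-05). Esrp1, an epithelial splicing regulator, had 46, 92, 62, 64 and 135 reads in DG 1 to 5 and 1, 0, 1 and 1 in SVZ 1 to 4. Srpk3 and Esrp1 exceeded 1 CPM in DG libraries only, and Celf6 in SVZ libraries only. Each is thus in the table only through the group where it is high. Rbfox3 is also one of the mature neuron markers, so that list and this one share a gene.

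Read assignment limits some members more than others. Without the 12 members that share 20% or more of their exon bases with another gene and without the pseudogene, 82 of 100 members were higher in SVZ, 5 in DG, and 13 did not pass.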

How the data were processed

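Per the labels' protocols, RNA of sorted cells was primed at its poly-A tail, copied with template switching, amplified as cDNA and sheared, and the libraries carried neither strand nor molecular identifiers. The submitters' processing notes name STAR, edgeR and mm10, and the sources used here give no versions, read counter or annotation. The deposited values are log2 CPM with a prior count of 1 read, as inferred from the values: 100% gave whole reads (tolerance 0.001), and each gene exceeded 1 CPM in at least 3 libraries. Identifiers were matched to GENCODE M21 symbols (14428 matched, 49 did not).

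Deposited values were tested with limma 3.58.1 (R 4.3.3, mean-variance trend, tissue as the only term) over all 14477 genes and 9 libraries. RPKM used the union of exons. Libraries of a group differed by more than sampling noise, with chi-square per degree of freedom of 19.4 to 172. The test was checked on simulated reads. Paralogue ratios were compared by exact permutation over libraries. Alternatives were other prior counts (0.25 and 5 reads), a level filter of 3 log2 CPM, median ratio scaling, limma voom on whole reads, each library left out, a replicate block and, added after seeing the data, members without shared exons.

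The members and lists were chosen with earlier results of these data known, so they are no independent evidence. Named members were a fixed set of genes, the 3 per role group and direction with the largest called difference without overlap, and every called member with a difference of at least 1. A gene that this rule takes is not reported here. From the other lists up to 2 per direction were taken; remaining names were chosen after their values were seen. The names Mbnl3, Esrp2 and Gemin4 matched no gene of the table, and Nopp140 is another name of Nolc1, which the list holds.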

Additional observations from a re-analysis of the deposited data

Results flagged for a closer look

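In 98 groups of values (the named members, the mean over members and the paralogue ratios, each in DG and in SVZ), 1 library stood far from the others in 6, where chance gives about 1 in 20. Ptbp1 was at 6.91 log2 CPM in DG 3, against 7.32 to 7.42 in the other DG libraries. Rbm12 was at 4.73 in DG 2, against 4.2 to 4.29. Srrm3 was at 1.06 in DG 3, against -0.14 to 0.2, and its call depends on that library, as given above. Rbm47 was at -0.36 in SVZ 1, against 1.41 to 1.66. U2af1 was at 5.41 in SVZ 4, against 6.21 to 6.34. The log2 ratio of Tra2a over Tra2b was -1.58 in DG 5, against -1.27 to -1.22.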

How the results depend on the processing

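The 92 members higher in SVZ became 92 or 93 under other prior counts, 88 with the level filter, 90 with median ratio scaling, 92 with voom, 85 to 92 with a library left out and 82 without shared exons. The 5 members higher in DG became 2 with the level filter, which tests fewer genes, and stayed at 5 under the other alternatives run. With that filter the genes of the table higher in DG fell from 4769 to 2938. Of the 97 called members, 90 to 95 kept their call and direction with a library left out, and 95 with median ratio scaling. Among 654 values of the 44 named members, 645 kept direction and side of the threshold. Ptbp3, not called, turned to 0.01 with median ratio scaling, and it lay between -0.09 and 0.03 with a library left out. Srsf2, not called, lay between -0.33 (without DG 3) and 0.02 (without DG 4). Snrpb passed without SVZ 4 (-0.56), and Srrm3 with a prior of 5 reads (-0.66, limma adjusted p = 0.0484) and without DG 3 or SVZ 1. The shift of Hnrnpll over Hnrnpl lay between -0.68 and -0.42 with a library left out, and its exact permutation p was over 0.05 for all but DG 2. The cause was not tested.

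Replicate numbers are shared between the regions, but same-numbered libraries did not deviate together (correlations -0.05, -0.17, 0.01 and -0.11). With a replicate block, the count was 87 members towards SVZ and 5 towards DG, and 90 of the 97 kept their call. Members with few reads, such as Rbm11 and Srrm3, are limited by depth, and a prior count understates their change.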
